A study of Mus musculus with 4 samples.

Results

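Mitophagy is the selective removal of mitochondria by autophagy, and 7 genes of it were followed here: the outer membrane receptors Bnip3, Bnip3l, Fundc1, Fkbp8 and Bcl2l13, the inner membrane receptor Phb2, and the kinase gene Pink1. They were chosen by gene symbol from a fixed list of names, and all 7 were among the 17746 symbols in the table and among the 16301 that passed the filter on low counts. RNA was sequenced from tumour cells of Rb1fl/fl; Trp53fl/fl mice, a model with features of small cell lung cancer, that also carried a knocked-in GFP-LC3-RFP-LC3ΔG reporter, so both groups share the gene deletions and the probe. Live EpCAM-positive, RFP-positive cells were sorted by GFP into a GFP-positive and a GFP-negative group, with 2 libraries each. The sources used here do not give the driver of the deletion, the age of the mice, any pooling of animals or whether different mice gave the 2 libraries of a group, so p-values measure only the spread between these libraries, which may be technical. The titles of the samples assign high autophagic flux to the GFP-positive group, whereas the design text assigns it to GFP-negative cells. The groups are therefore named by GFP, and no direction is given for flux.

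A mitophagy receptor sits in a mitochondrial membrane and binds LC3 or GABARAP proteins on the growing autophagosome through a short motif, which tethers the mitochondrion to it. BNIP3 and its paralogue BNIP3L (NIX) are known for mitophagy in low oxygen and, for BNIP3L, for clearing mitochondria from maturing red blood cells. The PINK1 route works without such a receptor at its start: PINK1 accumulates on damaged mitochondria and phosphorylates ubiquitin, and ubiquitin chains on outer membrane proteins then recruit ubiquitin-binding autophagy receptors.

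None of the 7 genes differed between the groups by the test. With Benjamini-Hochberg adjustment over all tested genes, edgeR's quasi-likelihood test called 0 of 7 in either direction, against 0.0982% of all tested genes. At an unadjusted p under 0.05 there were also 0 of 7, against 3.1% of all tested genes. DESeq2's Wald test called 0 of 7 as well, where it called 0.386% of all genes, and so did limma-voom and limma on FPKM. The fitted change, GFP-negative minus GFP-positive, was above 0 for 4 of 7 members and below 0 for 3, where 68.1% of all tested genes were above 0. The median log2 change was 0.28 for the 7 genes and 0.91 for all tested genes. The median of the 7 genes turned to -0.68 without GFP-negative replicate 1 and to -1.09 under upper quartile scaling. It was 5.22 without GFP-positive replicate 2, 0.13 without GFP-positive replicate 1 and 2.65 with the replicate numbers as a block. The median of all tested genes moved in these fits too, to 0.40 without GFP-negative replicate 1 and 10.1 without GFP-positive replicate 2. It was 0.27 without GFP-positive replicate 1 and 3.92 with the block. That median of all genes moved with the scaling, to 1.12 under DESeq2 size factors, 1.33 under library totals and 0.43 under upper quartile scaling, and was -0.06 among genes with counts in all 4 libraries.

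The libraries held 51994432 to 73997175 counts. GFP-positive replicate 1 stood apart, with counts for 6063 genes against 15710 to 17617 in the others, and 64.4% of tested genes had 0 counts in it. Epcam, whose product was the marker of the sort, had counts in each library (94.0 and 65.9 CPM among GFP-positive libraries, 255 and 88.9 CPM among GFP-negative ones). The 13 neuroendocrine tumour markers summed to 3788 and 1262 CPM among GFP-positive libraries, 5548 and 1609 CPM among GFP-negative ones. In GFP-positive replicate 1, 4 of the 13 had 0 counts, Chga among them, while Calca stood at 3073 CPM, its highest value in the 4 libraries. The 19 macrophage markers in the table summed to 125642 and 72218 CPM among GFP-positive libraries, 1375 and 23831 CPM among GFP-negative ones, with Ptprc at 0 counts in GFP-positive replicate 1 and Cd68 and Adgre1 present in all 4. The 6 hepatocyte genes in the table, of 12 listed, summed to 32199.7 CPM in GFP-positive replicate 1 and 140 to 1623 CPM in the others. In those others the sum was almost all Trf (117 to 1465 CPM) and Ttr (23.0 to 318 CPM). Alb was at 0 counts in GFP-positive replicate 2 and Cyp2e1 in both GFP-negative libraries. Sums over the 4 libraries spanned 2231 to 21525 CPM for B and plasma cell genes (Cd79a and Jchain at 0 counts in GFP-positive replicate 1, Igkc present in all). They spanned 0 to 149 CPM for T and NK cell genes (Cd3e, Trac and Nkg7 at 0 counts in GFP-positive replicate 1, and Trac also in GFP-negative replicate 2). Endothelial genes summed to 20.7 to 396 CPM, with Vwf at 0 counts in both GFP-positive libraries. The highest sum, in GFP-positive replicate 1, was almost all Pecam1, while 4 of the 6 genes had 0 counts there. Pecam1 stood at 396 CPM in that library and at 1.10 to 2.78 CPM in the others. Alveolar and airway genes summed to 459 to 4915 CPM, with Sftpc and Scgb1a1 present in all. In GFP-positive replicate 1, 4 of these 9 had 0 counts: Sftpb, Sftpa1, Abca3 and Foxj1. The part of these marker groups in the results below was not tested. In bulk samples, fewer cells of a type and less RNA per cell cannot be told apart. CPM here are counts scaled to the TMM-adjusted library size, with replicate 1 before replicate 2 wherever a group has 2 values, and FPKM are per length and are used to compare genes.

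Bnip3, the hypoxia-inducible receptor, was the member whose 2 groups did not overlap. It stood at 0.746 and 137 CPM among GFP-positive libraries, 476 and 268 CPM among GFP-negative ones. Both GFP-negative libraries thus lay above both GFP-positive ones, an order that 25.2% of all tested genes share, so that 1 of 7 members is no more than this background. The log2 change was 2.44 ± 2.07 (SE, n = 2 per group, edgeR adjusted p = 1.0). The mean was 5.41 times higher in the GFP-negative group, while the 2 GFP-positive libraries differed from each other by 183 times and the 2 GFP-negative libraries by 1.78 times. GFP-positive replicate 1 held 28 counts of Bnip3, and the exact Poisson 95% interval of that level was 0.496 to 1.08 CPM, for counting error only. Against GFP-positive replicate 2 alone, the GFP-negative libraries were 3.48 and 1.96 times higher, and without GFP-positive replicate 1 the log2 change was 1.43. Low counts in that library were common among abundant genes: of the 1381 tested genes with at least 5000 counts in each of the other 3 libraries, 29.2% had 28 counts or fewer there.

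The DNA before the Bnip3 start site is shown because Bnip3 is a known target of the hypoxia-inducible factors (HIF), whose core site is ACGTG or GCGTG. The 250 bases before the start are from RefSeq (GRCm38.p6, the build the files use, where it is called mm10). They are set beside those of Phb2, the nearest to Bnip3 in profile among the 5 members with counts in all 4 libraries. Capitals mark matches to ACGTG or GCGTG on either strand. The Bnip3 window lies at chr7:138909507-138909756 on the minus strand, with its last 13 bases inside the gene as GENCODE draws it, and the Phb2 window at chr6:124712039-124712288 on the plus strand, with 0 bases inside.
Bnip3: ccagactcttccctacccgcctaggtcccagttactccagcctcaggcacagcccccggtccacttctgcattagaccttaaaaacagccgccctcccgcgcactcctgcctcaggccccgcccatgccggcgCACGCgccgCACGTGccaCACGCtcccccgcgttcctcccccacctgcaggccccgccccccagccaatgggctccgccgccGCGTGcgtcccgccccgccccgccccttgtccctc
Phb2: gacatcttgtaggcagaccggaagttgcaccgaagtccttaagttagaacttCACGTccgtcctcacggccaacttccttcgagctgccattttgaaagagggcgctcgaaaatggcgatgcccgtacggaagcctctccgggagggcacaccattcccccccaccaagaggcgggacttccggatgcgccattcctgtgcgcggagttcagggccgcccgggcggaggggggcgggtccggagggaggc

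The Bnip3 window held 5 matches at 4 places. The match at CACGTG counts on both strands, so 2 of the 5 overlap, and the other 3 were GCGTG. The Phb2 window held 1. Promoter sequences matched 6 of the 7 genes, and the windows of Pink1, Bcl2l13 and Fkbp8 held 1, 1 and 2 matches. The window of Fundc1 lies wholly inside the gene in GENCODE, all 250 bases, and is not read as a promoter here. Of 32851 promoters of the same length 38.6% held at least 1 match and 1.01% held 5 or more. A match is a description of the letters and not a measured site of binding.

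Bnip3l, the paralogue that acts in reticulocytes, was the steadiest of the 7 genes. Its levels were 172 and 159 CPM among GFP-positive libraries, 202 and 104 CPM among GFP-negative ones, with both GFP-positive values between the GFP-negative ones. The log2 change was -0.12 ± 2.21, at an edgeR adjusted p of 1.0, and its sign flipped to 0.070 under DESeq2 size factors and to 0.58 under library totals. The red-cell markers did not follow this order: 7 erythroid genes summed to 45562 and 14346 CPM among GFP-positive libraries, 1627 and 5400 CPM among GFP-negative ones, with Hbb-bs, Hba-a1 and Alas2 present in all 4. A pseudogene, Bnip3l-ps, was listed separately at 25.9 and 26.9 CPM among GFP-positive libraries, 48.6 and 29.8 CPM among GFP-negative ones. How the counting split reads between it and Bnip3l is not given, so the level of Bnip3l is uncertain.

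The balance of the 2 paralogues within a library does not depend on how libraries are scaled. Per length, Bnip3 stood at 0.211 and 48.9 FPKM in GFP-positive and 284 and 98.4 FPKM in GFP-negative libraries. Bnip3l stood at 28.8 and 33.3 FPKM in GFP-positive and 70.7 and 22.3 FPKM in GFP-negative libraries. Bnip3 was therefore 4.02 and 4.41 times as high as Bnip3l in the GFP-negative libraries and 1.47 times as high in GFP-positive replicate 2, while in GFP-positive replicate 1 Bnip3l was 137 times as high as Bnip3. With 2 libraries a group, no exact test of this ratio can pass the threshold, and none is given.

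**Figure D1:**
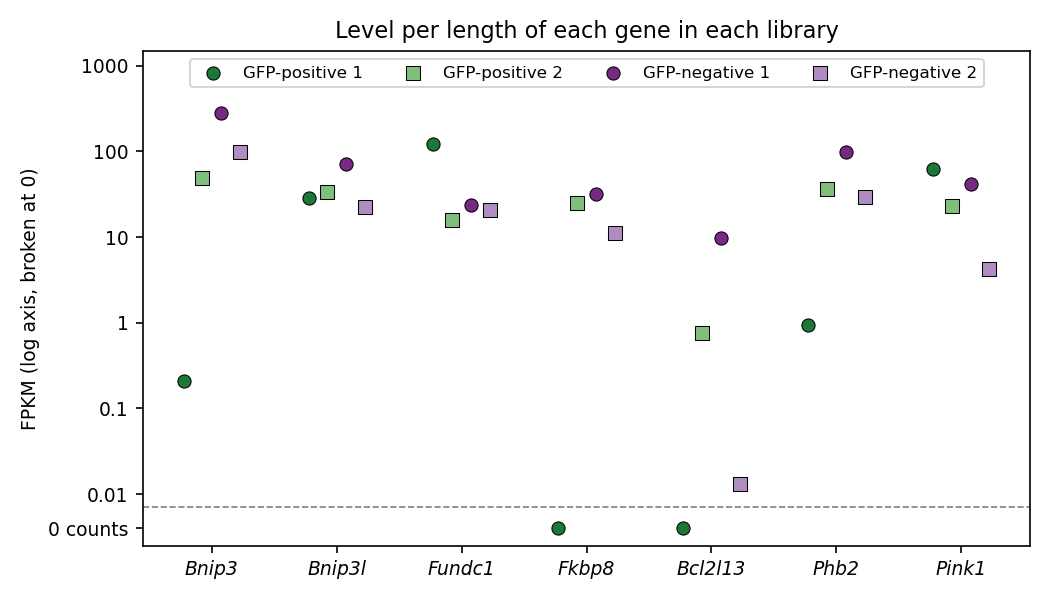
Level of each mitophagy gene in each library in FPKM, on a log axis broken at 0, with circles for replicate 1, squares for replicate 2, green for GFP-positive and purple for GFP-negative. Bnip3 spans from 0.211 FPKM in GFP-positive replicate 1 to 284 FPKM in GFP-negative replicate 1, and Fkbp8 and Bcl2l13 have 0 counts in GFP-positive replicate 1.

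Fundc1, an outer membrane receptor whose binding to LC3 is set by phosphorylation, was set apart by 1 library. It stood at 440 and 45.5 CPM among GFP-positive libraries, 41.1 and 58.8 CPM among GFP-negative ones. GFP-positive replicate 1 was high, and GFP-positive replicate 2 lay between the GFP-negative libraries. The log2 change was -2.28 ± 2.39, at an edgeR adjusted p of 1.0, and turned to 0.13 without GFP-positive replicate 1. In the other 3 libraries Fundc1 was thus level within 41.1 to 58.8 CPM, a narrower range than that of any other member over the same libraries.

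Fkbp8, a receptor of the FK506-binding protein family that also anchors BCL2, had 0 and 139 CPM among GFP-positive libraries, 108 and 61.1 CPM among GFP-negative ones. GFP-positive replicate 2 was the highest and replicate 1 of the same group the lowest, so the GFP-negative values fell between them. At 0 counts, a limit of 3 counts equals 0.080 CPM in GFP-positive replicate 1. Its fitted log2 change was 0.28 ± 2.91 (edgeR adjusted p = 1.0), which became -0.73 without GFP-positive replicate 1. Of the 2503 tested genes with at least 2500 counts in each of the other 3 libraries, as Fkbp8 had, 25.1% also had 0 counts in GFP-positive replicate 1. Kxd1, which overlaps Fkbp8 on the opposite strand by 233 bases, stood at 0 and 61.4 CPM among GFP-positive libraries, 46.6 and 139.8 CPM among GFP-negative ones, and reads from the shared bases cannot be told apart.

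Bcl2l13, a BCL2-family protein regarded as a mammalian counterpart of a yeast mitophagy receptor, was the lowest member per length in every library apart from its tie with Fkbp8 at 0 counts. It stood at 0 and 8.49 CPM among GFP-positive libraries, 65.1 and 0.15 CPM among GFP-negative ones. A single library, GFP-negative replicate 1, was high, and the 2 GFP-negative libraries differed by 434 times, with 7392 counts in replicate 1 and 10 in replicate 2. The fit gave a log2 change of 2.94 ± 4.59 (edgeR adjusted p = 1.0), and -4.80 without GFP-negative replicate 1. Its last 913 bases overlap Bid, on the opposite strand, which stood at 299.6 and 36.0 CPM among GFP-positive libraries, 63.1 and 53.9 CPM among GFP-negative ones.

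Phb2, a prohibitin of the inner membrane that is exposed to LC3 once the outer membrane breaks, followed Bnip3 in being nearly lost from 1 library. It stood at 5.44 and 166 CPM among GFP-positive libraries, 272 and 132 CPM among GFP-negative ones. GFP-positive replicate 1 was low, and GFP-positive replicate 2 lay between the GFP-negative libraries. The log2 change was 1.24 ± 2.33 (edgeR adjusted p = 1.0), fell to 0.27 without GFP-positive replicate 1 and turned to -1.09 under upper quartile scaling. Phb, which encodes the partner of PHB2 in the prohibitin ring and is named here after its values were seen, stood at 421 and 215 CPM among GFP-positive libraries, 140 and 409 CPM among GFP-negative ones, so the 2 partners did not share the low library.

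Pink1, the kinase that senses mitochondrial damage, had its highest level in a GFP-positive library and its lowest in a GFP-negative one. It stood at 260 and 76.8 CPM among GFP-positive libraries, 82.6 and 13.7 CPM among GFP-negative ones. The groups overlapped, since GFP-negative replicate 1 lay above GFP-positive replicate 2. For Pink1 the fitted log2 change was -1.81 ± 2.64 (edgeR adjusted p = 1.0), moving to -0.69 without GFP-positive replicate 1 and -3.62 without GFP-negative replicate 1. The mean was 3.495 times higher in the GFP-positive group, set against 3.39 times between the 2 GFP-positive libraries and 6.02 times between the 2 GFP-negative libraries. Under all 17 alternatives run the log2 change of Pink1 stayed below 0 and that of Bnip3 above 0. The alternative with an adjusted p threshold of 0.1 kept the main fit, so no sign could turn in it. The others refit the same libraries, so a sign they share is not separate support.

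**Figure D2:**
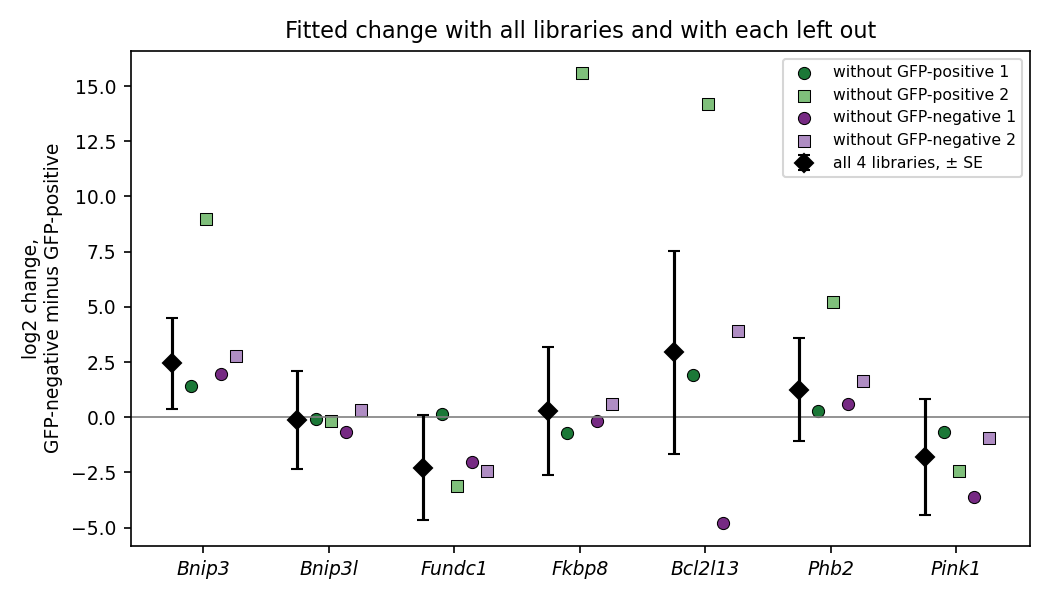
Fitted log2 change of each gene, GFP-negative minus GFP-positive, with all 4 libraries (black diamonds, bars ± SE) and with 1 library left out (coloured points, no bars). Leaving out GFP-positive replicate 2 moved Fkbp8 to 15.58 and Bcl2l13 to 14.21, and leaving out GFP-negative replicate 1 moved Bcl2l13 to -4.80.

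A call appeared in 1 of these fits. Without GFP-positive replicate 2, which leaves replicate 1 as the sole GFP-positive library, Bnip3, Fkbp8 and Bcl2l13 were called higher in the GFP-negative group, at a log2 change of 8.96, 15.58 and 14.21 and an edgeR adjusted p of 0.0137, 0.00865 and 0.0114. In the same fit 49.8% of all tested genes were called higher, so 3 of 7 members is near that background. There the spread came from the 2 GFP-negative libraries, and the lone GFP-positive library is assumed to vary like them.

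The order of the 7 genes per length was alike in 3 libraries and differed in the other one. From the top, Bnip3, Phb2 and Bnip3l led in that order and Bcl2l13 was last in GFP-positive replicate 2 and in both GFP-negative libraries. In GFP-positive replicate 1 Fundc1 was first at 121 FPKM, followed by Pink1 at 62.8 and Bnip3l at 28.8 FPKM. Bnip3 took 50.6% and 52.8% of the summed FPKM of the 7 genes in the GFP-negative libraries, 26.7% in GFP-positive replicate 2 and 0.099% in GFP-positive replicate 1. Pink1 took 7.45% and 2.29% in the GFP-negative libraries against 29.4% and 12.7% in the GFP-positive ones. On these shares the groups did not overlap for Bnip3, Pink1 and Bnip3l. For Bnip3l the shares lay close, at 12.6% and 11.96% in the GFP-negative and 13.5% and 18.2% in the GFP-positive libraries. On CPM the groups of Pink1 and Bnip3l overlapped. Such shares have no counterpart over all tested genes, so the number of separated members is not read as a result about them. The shares of the 7 genes depend on one another, since each is a part of 1 sum. Bnip3 was also high among all genes, above 99.1% and 95.3% of the 17746 symbols by FPKM in the GFP-negative libraries and above 93.1% in GFP-positive replicate 2. The sum over the 7 genes was 214 and 183 FPKM in GFP-positive and 561 and 186 FPKM in GFP-negative libraries, so GFP-negative replicate 1 was the high one. On CPM, 6 of 7 members were higher in GFP-negative replicate 1 than in replicate 2, all but Fundc1, where 55.4% of all tested genes were.

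**Figure D3:**
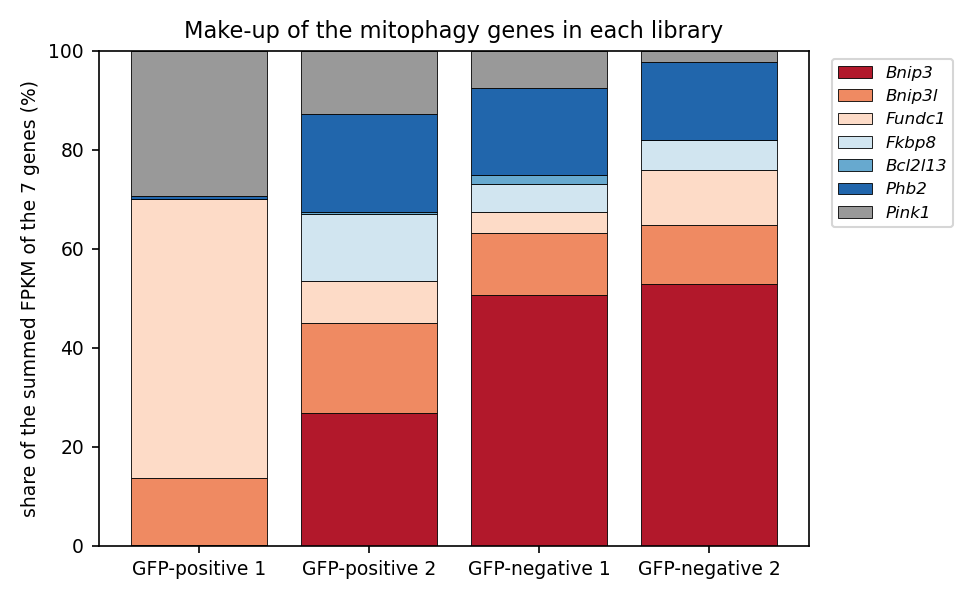
Share of each gene in the summed FPKM of the 7 mitophagy genes, in percent, with 1 stacked bar per library. Bnip3 (dark red) takes 50.6% and 52.8% in the GFP-negative libraries and 26.7% in GFP-positive replicate 2, while Fundc1 and Pink1 fill most of GFP-positive replicate 1.

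Genes whose profile over the 4 libraries lay nearest to a member were found by the Euclidean distance of centred log2(CPM + 1), among 4621 other genes with counts in all 4 libraries and a mean of at least 5 CPM. For Bnip3 they were Hdac2, Psmd2 and Trim35, at distances of 0.33, 0.37 and 0.43, where the median gene was at 6.95. For Bnip3l they were Pkm, Atp6v0e2 and Slc29a1 (0.071 to 0.14), and for Fundc1 Rcc1l, Max and Nme3 (0.15 to 0.19). For Phb2 they were Nolc1, Gclm and Prpf4b (0.11 to 0.15), and for Pink1 Snx30, Csnk1d and Akr7a5 (0.19 to 0.42). Among the 5 members with counts in all 4 libraries, Phb2 was nearest to Bnip3 at 2.30, ranked 481st of those genes. Fundc1 was farthest from it at 9.11. Fkbp8 and Bcl2l13, at 0 counts in GFP-positive replicate 1, were left out of this comparison, so a nearer member is possible. With 4 libraries, such likeness describes these libraries only.

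The genes around the members were read from lists of names. Of the PINK1 route, which holds deubiquitinases, ubiquitin-tagged outer membrane proteins and the autophagy receptors they recruit, 0 of 25 tested genes were called by edgeR or were at an unadjusted p under 0.05. The fitted change was above 0 for 20 of them, with a median of 1.03, and 0.15 without GFP-positive replicate 1, where all tested genes had medians of 0.91 and 0.27. In that library 13 of the 25 had 0 counts. The groups of 3 genes of this list did not overlap with GFP-negative higher, against 25.2% of all tested genes, and those of 2 with GFP-negative lower, against 6.63%. Usp8, a deubiquitinase of this route, stood at 615 and 14.6 CPM among GFP-positive libraries, 37.2 and 6.10 CPM among GFP-negative ones. Its log2 change was -3.86 ± 2.42 (edgeR adjusted p = 1.0), and it turned to 0.55 without GFP-positive replicate 1. Sqstm1, the ubiquitin-binding receptor p62, had 1514 and 932 CPM among GFP-positive libraries, 384 and 292 CPM among GFP-negative ones. Both GFP-negative libraries of Sqstm1 were below both GFP-positive ones, with a log2 change of -1.86 ± 1.31 (edgeR adjusted p = 1.0) that was -1.47 without GFP-positive replicate 1.

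Regulators of the receptors, such as the ligase Marchf5 that acts on FUNDC1 and the FBXL4 protein that limits BNIP3 and BNIP3L, gave 0 calls of 21 in edgeR and 0 at an unadjusted p under 0.05. Their median log2 change was 1.11, and 0.25 without GFP-positive replicate 1, with 12 at 0 counts in that library. Mcl1, a survival protein of the BCL2 family, had 377 and 209 CPM among GFP-positive libraries, 63.9 and 30.8 CPM among GFP-negative ones (log2 change -2.63 ± 2.28, edgeR adjusted p = 1.0). Its groups did not overlap, with GFP-negative lower, as for 1 gene of the 21 in this list and 6.63% of all tested genes. The groups of 3 genes of this list did not overlap with GFP-negative higher, against 25.2% of all tested genes. Rheb, a small GTPase known to bind BNIP3 and BNIP3L, had 163 and 391 CPM among GFP-positive libraries, 274 and 1260 CPM among GFP-negative ones, with GFP-negative replicate 2 the high one (log2 change 1.47 ± 1.51, edgeR adjusted p = 1.0, and 0.0081 without that library).

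A list of known HIF targets, which also holds Hif1a and Epas1 of HIF itself, was tested because Bnip3 is a target. It gave 0 calls of 21 in edgeR and 0 at an unadjusted p under 0.05. The median log2 change of the list was 0.63, and -1.19 without GFP-negative replicate 1, where all tested genes had medians of 0.91 and 0.40. It was 0.54 without GFP-positive replicate 1 and 1.09 without GFP-negative replicate 2, against 0.27 and 0.73 for all tested genes. Without GFP-positive replicate 2 it was 8.94, against 10.1 for all tested genes. The list thus lay above the median of all genes in some fits and below it in others. The groups of 2 genes of this list did not overlap with GFP-negative higher, against 25.2% of all tested genes. Those of 2 did not overlap with GFP-negative lower, against 6.63%. Pdk1, the kinase that holds back pyruvate dehydrogenase, had 0 and 9.51 CPM among GFP-positive libraries, 108 and 0 CPM among GFP-negative ones, so that 1 library carried it (log2 change 3.50 ± 4.41, edgeR adjusted p = 1.0). Ndrg1, a hypoxia-responsive gene, had 0.27 and 21.4 CPM among GFP-positive libraries, 142 and 4.52 CPM among GFP-negative ones (log2 change 2.75 ± 3.90, edgeR adjusted p = 1.0). Both were high in GFP-negative replicate 1 and, unlike Bnip3, low in GFP-negative replicate 2. They were named for their p and do not stand for the whole list, in which other genes kept the groups apart as Bnip3 did.

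Mitochondrial genes that stand for the amount of the organelle, from import, the respiratory chain and the citric acid cycle, gave 0 calls of 25 in edgeR and 0 at an unadjusted p under 0.05. Their median log2 change was 0.85, and 0.47 without GFP-positive replicate 1. Their summed level was 6453 and 8043 CPM among GFP-positive libraries, 8222 and 13904 CPM among GFP-negative ones. Mdh2, a citric acid cycle enzyme, had 194 and 614 CPM among GFP-positive libraries, 605 and 2270 CPM among GFP-negative ones (log2 change 1.83 ± 1.24, edgeR adjusted p = 1.0, and 0.60 without GFP-negative replicate 2). Uqcrc1, a subunit of respiratory complex III, had 0.11 and 691 CPM among GFP-positive libraries, 382 and 2062 CPM among GFP-negative ones (log2 change 1.82 ± 1.31, edgeR adjusted p = 1.0, 0.13 without GFP-negative replicate 2 and 13.46 without GFP-positive replicate 2, where edgeR adjusted p was 0.00865). GFP-negative replicate 2 was the highest library for both, whereas for Bnip3, Bnip3l and Phb2 it was GFP-negative replicate 1.

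**Figure D4:**
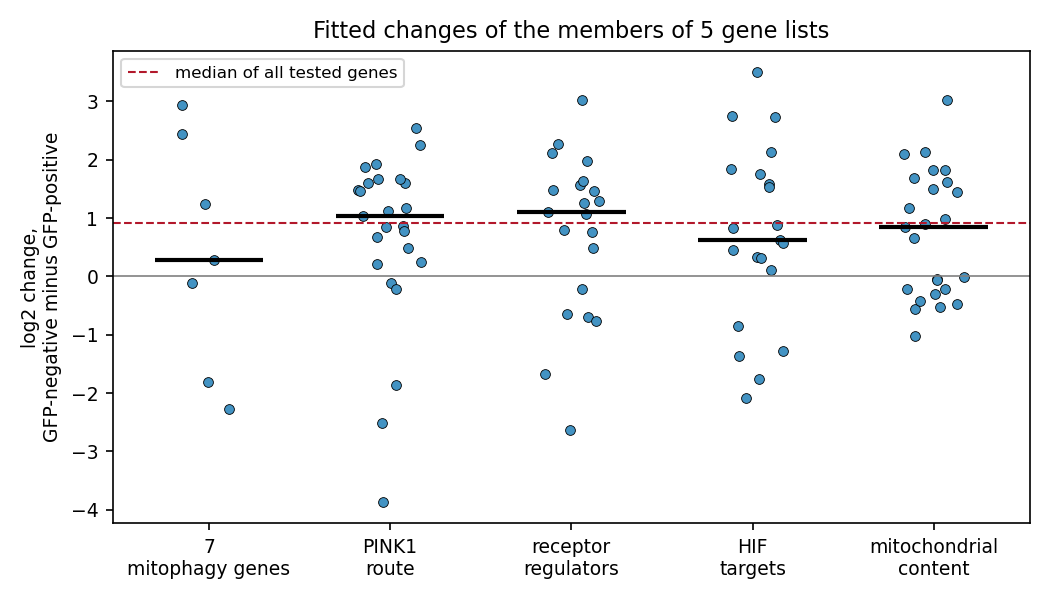
Fitted log2 change, GFP-negative minus GFP-positive, of each tested gene (points) in 5 lists, with the list's median (black bar) and the median of all tested genes (red dashed line, 0.91). The medians were 0.28 for the 7 mitophagy genes, 1.03, 1.11, 0.63 and 0.85 for the others, in the order drawn, and no point passed the test.

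In the genome (mm10, positions from GENCODE M21) the 7 genes lie apart except for Bcl2l13 and Phb2, which share chromosome 6 (120836212 to 120892842 and 124712336 to 124716950, both on the plus strand). Bnip3 lies on chromosome 7 from 138890836 to 138909519, Bnip3l on chromosome 14 from 66985239 to 67008877 and Fundc1 on chromosome X from 17556564 to 17572325, all on the minus strand. Fkbp8 lies on chromosome 8 from 70527724 to 70535328 on the plus strand, and Pink1 on chromosome 4 from 138313409 to 138326307 on the minus strand. An antisense gene, Gm45507, and a processed pseudogene, Gm18258, lie within Bnip3, and the antisense gene Gm15884 overlaps Phb2 by 1378 bases. The kit does not mark the strand, so reads of these genes cannot be told from those of Bnip3 and Phb2.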

How the data were processed

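Expression was measured by RNA sequencing in 4 libraries. Per the labels' protocols, cDNA was made from small amounts of total RNA by oligo(dT) priming and template switching, amplified by PCR and sequenced in pairs. The authors deposited 1 table with whole-number counts per gene symbol and library, and the same table holds FPKM that the authors deposited, per the file headers. The build was mm10 and the tools named were cutadapt 1.9, HISAT2 2.2.1, StringTie 2.1.6, DESeq2 and edgeR, per the submitters' processing notes. The sources used here do not give the counter or the annotation. The counts carry no molecular identifiers, so intervals and limits cover counting error only.

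The tests ran in edgeR 4.0.16 under R 4.3.3: filterByExpr (minimum count 10), TMM, a model with the group alone, glmQLFTest and Benjamini-Hochberg adjustment over 16301 genes, with a threshold of 0.05. An SE is the absolute log2 change divided by the root of F. The alternatives used DESeq2 1.42.0 and limma 3.58.1, with pseudocounts of 0.1, 1 and 5 for FPKM. The scripts were tested on simulated data at a dispersion (spread beyond counting) of 0.1, where these libraries had a common dispersion of 3.67. That run checked the code and does not show how well the tests perform on these libraries. The members, lists and tests were chosen with earlier results of these data known. Named genes are the 7 members, the 2 smallest p in each pathway list (none had a call), the defining markers of 8 marker lists where the table holds them, and the 3 nearest profiles of each member. Phb, the overlapping genes and Bnip3l-ps were added after their values were seen. Some genes of the lists are not reported here by name. Older and newer symbols were counted once, and some genes stand in more than 1 list.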

Additional observations from a re-analysis of the deposited data

How the results depend on the processing

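The count of called genes, 16, was 0 under upper quartile scaling and in limma on FPKM with each pseudocount, 63 in DESeq2's Wald test, 4 in limma-voom and 5 among genes with counts in all 4 libraries, where fewer genes were tested. It ranged from 1 (without GFP-positive replicate 1) to 8577 (without GFP-positive replicate 2) when 1 library was left out. The count of called members, 0, ranged from 0 to 3 over the same fits and was 0 under every other alternative. The labels' replicate numbers were tried as a block: 21 genes were called with the replicate block, 12 of them among the 16, and 0 of 7 members. The replicate 1 minus replicate 2 differences of the 2 groups correlated at 0.033 across genes, so the numbers do not show pairing.

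The direction of Bnip3l turned in 8 of 17 alternatives, among which the adjusted p threshold of 0.1 kept the main fit and could not turn it. The turned values were 0.070 with DESeq2 size factors and DESeq2's test, 0.58 with library totals and 0.36, 0.35 and 0.34 on FPKM. They were 0.0013 among genes with counts in all 4 libraries and 0.34 without GFP-negative replicate 2. Upper quartile scaling turned Phb2 (-1.09), Rheb (-3.65) and Mdh2 (-3.01). The upper quartile of GFP-positive replicate 1 was 10 counts. Without GFP-positive replicate 1, Fundc1 (0.13), Fkbp8 (-0.73) and Usp8 (0.55) turned, and without GFP-negative replicate 1, Fkbp8 (-0.19), Bcl2l13 (-4.80), Pdk1 (-11.06) and Ndrg1 (-1.26). Over the 4 fits with 1 library left out, Bnip3l ranged from -0.68 to 0.34, Fundc1 from -3.14 to 0.13, Fkbp8 from -0.73 to 15.58, Bcl2l13 from -4.80 to 14.21, Usp8 from -5.69 to 0.55, Pdk1 from -11.06 to 14.93, Ndrg1 from -1.26 to 8.09, Rheb from 0.0081 to 2.24, Mdh2 from 0.60 to 2.89 and Uqcrc1 from 0.13 to 13.46. The causes were not tested. Stated limits of 3 counts cover counting alone, and 2 libraries a group bound what any fit can show.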
